A study of Mus musculus with 2 samples.

Results

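The genes of WNT signalling were examined in a comparison of Pparg-cKO and control mouse ureters at E16.5. Members were the probes whose gene name in the scanner output was a numbered Wnt, Fzd, Sfrp, Dkk or Rspo gene, or Axin1, Axin2, Lef1, Tcf7, Tcf7l1, Tcf7l2, Ctnnb1, Lrp5, Lrp6 or Wif1. The rule reads gene names only. It gave 51 genes on 64 probes, of 29982 genes on 39429 probes in all. The members comprised 19 WNT ligands, 10 Frizzled receptors, 2 LRP co-receptors, 4 R-spondins, 9 secreted antagonists, 6 cytoplasmic and nuclear components and the feedback target Axin2.

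WNT proteins are secreted lipid-modified ligands that bind Frizzled receptors. With an LRP co-receptor, the canonical branch halts the destruction of beta-catenin (Ctnnb1), which then enters the nucleus and activates target genes together with TCF and LEF factors. R-spondins raise the number of Frizzled and LRP molecules at the cell surface, secreted antagonists capture the ligand or block the co-receptor, and Axin2 is a target gene that feeds back on the pathway. In the developing ureter, WNT ligands made by the epithelium act on the surrounding mesenchyme, from which smooth muscle forms.

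Total RNA was taken from pools of dissected ureters of sex-sorted NMRI embryos and hybridised to 2 two-colour oligonucleotide arrays. Array 1 (replicate 1) held female pools and array 2 (replicate 2) male pools, with the dyes exchanged between the arrays. Pparg-cKO embryos carried Pax2-cre/+ and Pparg(fl/fl), so that the deletion followed the activity of Pax2-cre, which the study used to reach the ureteric epithelium. Controls were littermates without cre, labelled Pparg(fl/?), which means that floxed Pparg is shared by both groups and the second control allele is not given. The labels give E14.5 as the stage of the mutant channel, whereas the titles and the dissection protocol give E16.5. Because whole ureters were pooled, fewer cells of a type and less RNA per cell cannot be told apart.

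On both arrays, the labels of the dyes oppose the direction in which the study gives its fold changes. The RNAs are therefore named by dye. RNA A carried AlexaFluor647 (red) on array 1 and AlexaFluor555 (green) on array 2, and RNA B carried the other dye. RNA A was the control RNA by the labels and the Pparg-cKO RNA by the study's direction, so no value below is assigned to a genotype, and none was used to settle which RNA is which. All ratios are log2 of RNA A over RNA B, and a positive ratio means a brighter RNA A. Where a pair of signals is given, RNA A comes first. Since dye and sex changed together, a ratio of opposite sign on the arrays may follow either one, and these cannot be told apart. Pparg had processed signals of 11295 (RNA A) and 7430 (RNA B) on array 1 and 12888 against 7872 on array 2, with log2 ratios of 0.60 and 0.71 (limma adjusted p = 0.615). Whether its probe lies in the deleted part of the gene is not given in the sources used here, so Pparg was not used to settle the labels.

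The labelled tissue was checked with marker genes. All 14 urothelial and all 11 mesenchymal or smooth muscle markers were well above background. Of 10 nephron markers 8 were, with Nphs1 and Umod as the exceptions. Of 6 gonad markers 5 were found and 4 were well above background, with Amh as the exception among those found. The summed signals of the urothelial markers ran from 121511 to 141128 (RNA A) and from 181375 to 186753 (RNA B). Those of the mesenchymal list ran from 132067 to 152455 (RNA A) and from 175913 to 185671 (RNA B). The median log2 ratio of the urothelial list was -0.59 on array 1 and -0.12 on array 2. RNA B was the brighter on both arrays in 7 of its 14 genes, against 17.4% of all genes tested. RNA A was the brighter on both in 1, Krt5 (0.26 and 0.67), against 21.6%. The mesenchymal list had medians of -0.42 and -0.64. There RNA B was the brighter on both arrays in 6 of 11 genes and RNA A in 0, against the same shares. The uroplakin genes Upk1a (-1.42 and -1.22, limma adjusted p = 0.0451) and Upk3b (-1.67 and -1.71, limma adjusted p = 0.0201) were lower in RNA A in both dyes. They were chosen with their values known, and no genotype was taken from them. The part of these markers in the ratios of the WNT genes was not tested.

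No WNT gene changed by the study's criterion in the same direction on both arrays. The criterion was read as at least 1.5-fold on both arrays, where the brighter RNA also had to reach a signal of 100 each time. It was passed by 0 of 51 members brighter in RNA A, against 0.157% of all genes, and by 0 of 51 brighter in RNA B, against 0.23% of all genes. In opposite directions it was passed by 1 member, Lrp6, against 0.43% of all genes. limma, fitted to the ratios of 21429 genes well above background in at least 1 RNA on both arrays, called 0 of the 44 members that entered the fit at an adjusted p under 0.05, against 0.313% of all genes tested. At an unadjusted p under 0.05 limma gave 2 members, Wnt16 and Wnt2, against 3.78% of all genes tested. The lowest adjusted p of a member was 0.491 (Wnt16, limma), and those of the other 43 rounded to 1.00.

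The members' mean ratios lay close to 0. Their median was 0.03 on the log2 scale, beside 0.0067 for all genes tested. Of 44 members 37 (84.1%) had a mean within 1.2-fold, beside 85.8% of all genes tested. The median width of the 95% limma interval to either side of the mean was 0.48. For most members, changes up to about that size could thus not be told from 0 with 2 arrays. These intervals are per gene and not adjusted for the number of genes tested. A call at an adjusted p under 0.05 took a larger change. Wnt16, with a mean of 0.72, had a limma adjusted p of 0.491. With 2 arrays, the smallest two-sided p that exact sign flips of 1 gene allow is 0.5. Nothing in the labels ties the pools to separate litters, so the spread between arrays is that of these pools, sexes and dyes.

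**Figure D1:**
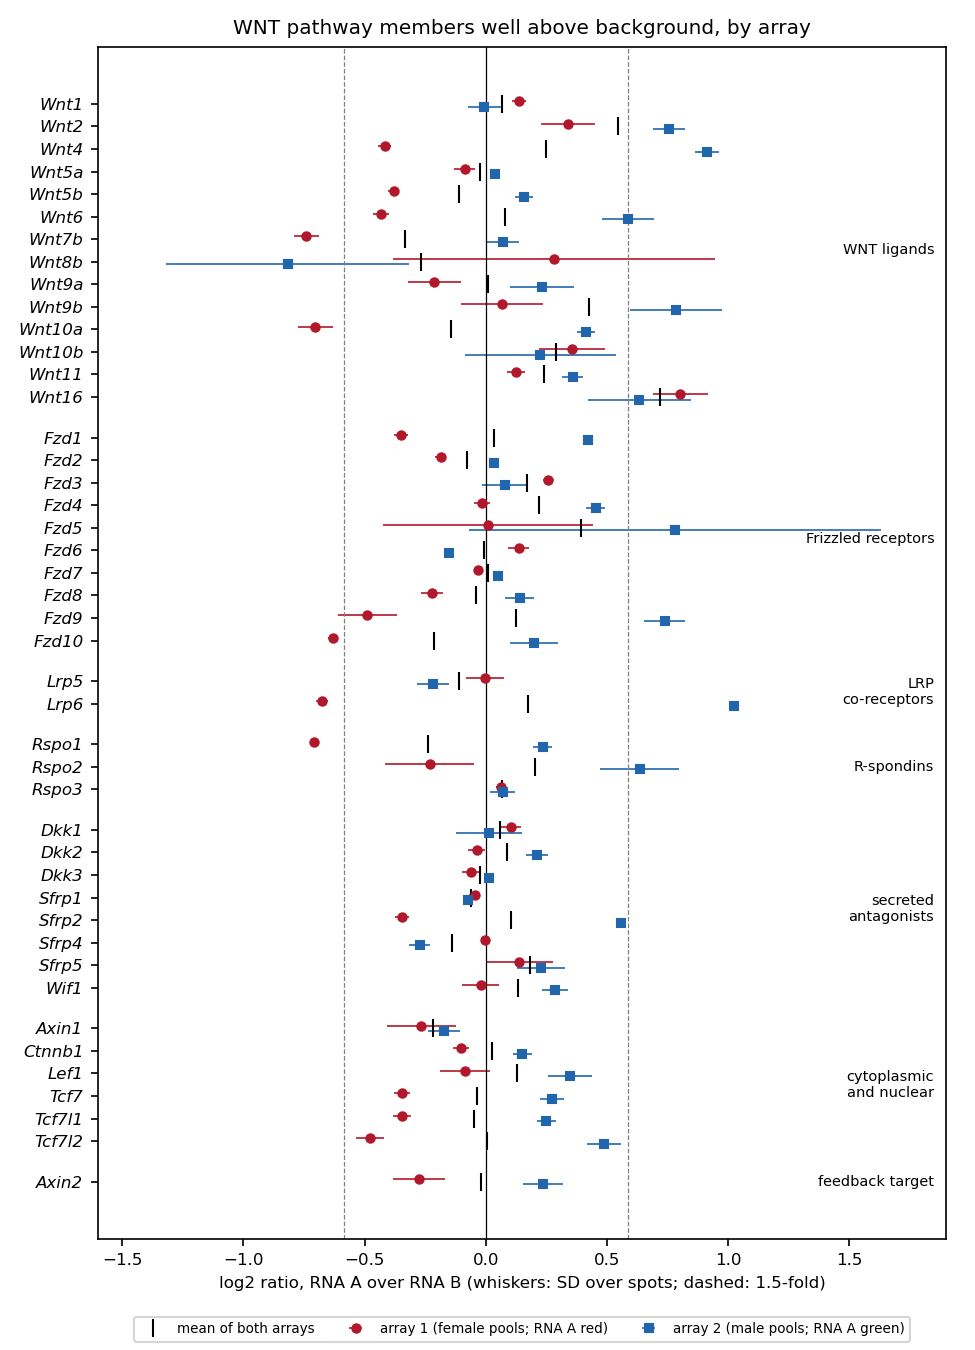
Log2 ratio of RNA A over RNA B (x axis) for the 44 WNT genes well above background, grouped by role. Red circles are array 1 (female pools, RNA A in red), blue squares array 2 (male pools, RNA A in green), whiskers the SD over spots and black ticks the mean of both arrays. The dashed lines mark 1.5-fold. Red circles often lie left of 0 and blue squares right of it, as for Lrp6 at -0.67 and 1.02.

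The arrays differed from each other more than the means differed from 0. The median ratio of the members was -0.09 on array 1 and 0.23 on array 2, beside -0.00038 and 0.03 for all genes tested. The SD between the arrays exceeded the SD over spots of both arrays in 36 of 44 members. Its median was 0.30 on the log2 scale, beside median spot SDs of 0.04 on array 1 and 0.06 on array 2. A ratio above 0 on both arrays was found for 10 of 44 members, against 21.6% of all genes tested. A ratio below 0 on both was found for 4 members, against 17.4%. The remaining members had opposite signs on the arrays: 27 of 44 members (61.4%) were brighter in the green dye on both arrays, against 32.6% of all genes tested, and 3 were brighter in the red dye on both (Wnt1, Wnt8b and Fzd6), against 28.4%.

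**Figure D2:**
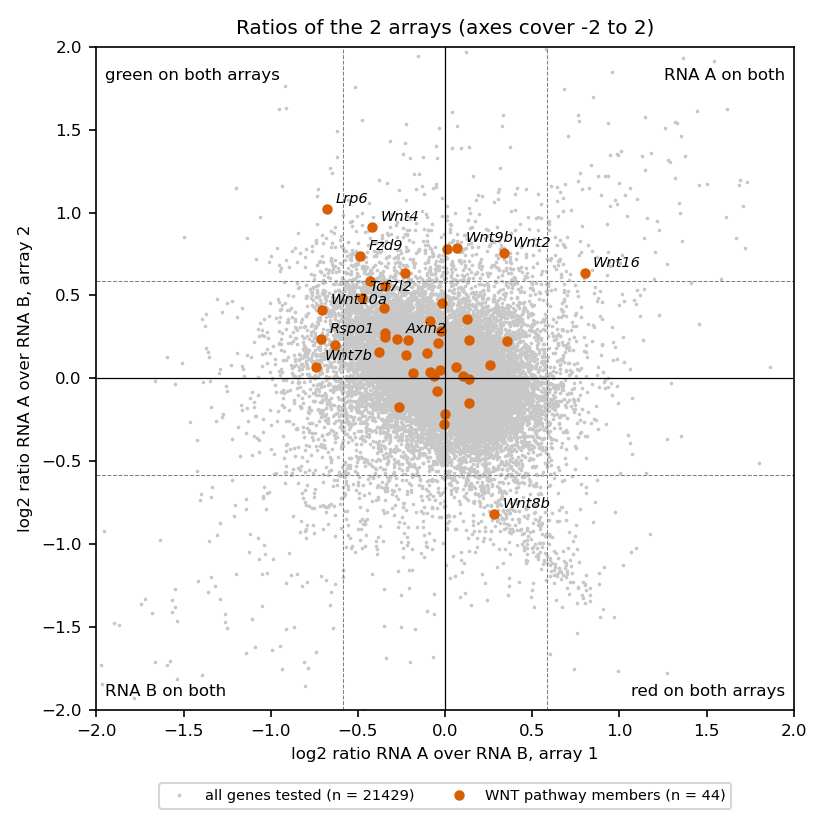
Log2 ratio of RNA A over RNA B on array 2 (y axis) against array 1 (x axis) for all 21429 genes tested (grey) and the 44 WNT genes among them (orange), with dashed lines at 1.5-fold. Genes beyond 2 on either axis are not drawn. Most WNT genes (27) lie in the upper left, where the green dye was brighter on both arrays, and Wnt16 stands apart in the upper right.

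Across the 44 members the ratios of the arrays had a Pearson correlation of -0.23 and a Spearman correlation of -0.28, beside -0.05 and -0.25 over all genes tested. The points of each array share its hybridisation, dyes and pools, and these values are a description over genes. On single arrays, the 1.5-fold change with a signal of at least 100 was passed on array 1 by 0 of 51 members brighter in RNA A, against 1.07% of all genes. It was passed by 5 members brighter in RNA B (Wnt7b, Wnt10a, Fzd10, Lrp6 and Rspo1), against 2.12%. On array 2 it was passed by 3 members brighter in RNA A (Wnt4, Wnt6 and Lrp6), against 1%, and by 0 brighter in RNA B, against 1.63%. All 8 of these passes lay on the side of the green dye.

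The probe sequences of Lrp6, Tcf7l2 and Wnt16 are shown because the description of these genes turns on which probe is read. Each line gives the first 30 of the 60 bases from 5′ to 3′, in lower case because no motif was searched, with the positions of the whole probe as the files give them (mm9). Probe 1 of a gene is its brightest probe, which represents it elsewhere in the text. The Lrp6 probes lie at chr6:134400440-134400499 and chr6:134404723-134404782 on the minus strand. The Tcf7l2 probes lie at chr19:56006638-56006697, chr19:55994029-55994088 and chr19:55817272-55817331 on the plus strand. The Wnt16 probes lie at chr6:22241135-22241194 and chr6:22247804-22247863 on the plus strand.
Lrp6 probe 1: caaaggaaacaggaaaagaaaggcatcact
Lrp6 probe 2: atcgagcgcacgtcacgggagcctcctcaa
Tcf7l2 probe 1: tgttatgtagttcggatagcttagttttaa
Tcf7l2 probe 2: caaaatactacgagctggcccggaaggaac
Tcf7l2 probe 3: agacggcctccgcctcgctccgaaagtttc
Wnt16 probe 1: aaacaccacaggaaaagaaagcagagtcct
Wnt16 probe 2: acggagtttccggctcctgtgctgtgaaaa

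The Wnt16 probes start 6669 bases apart in the genome but at bases 840 and 947 of the transcript the files name, so that they read nearby exonic sequence with an intron between. The Lrp6 probes start 4283 bases apart in the genome and 765 in the transcript. The outer Tcf7l2 probes start 189366 bases apart in the genome and were matched by the files to different transcripts of the gene. The GC content was 45% for both Wnt16 probes, 45% and 55% for the Lrp6 probes, and 23.3%, 55% and 53.3% for the Tcf7l2 probes.

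Among the 19 WNT ligands, 14 were well above background. RNA A was the brighter on both arrays for 5 of these, against 21.6% of all genes tested, and RNA B for 0, against 17.4%. The others divided into 7 brighter in the green dye on both, against 32.6%, and 2 in the red dye on both, against 28.4%. Their median mean ratio was 0.07. The role held both members with an unadjusted limma p under 0.05. The share of ligands with a mean within 1.2-fold was 57.1%, beside 85.8% of all genes tested. Of the ligands outside it, Wnt2, Wnt8b, Wnt9b, Wnt10b and Wnt16 had all signals below 100, whereas Wnt7b did not.

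Wnt16, a ligand known from bone and haematopoietic development, had processed signals of 29.2 (RNA A) against 16.7 (RNA B) on array 1 and 31.3 against 20.2 on array 2. RNA A was thus brighter on both arrays, although all signals lay below the intensity threshold of 100. The log2 ratios were 0.80 and 0.63, with a mean of 0.72 ± 0.12 (SD, n = 2 arrays), and limma gave a 95% interval of 0.26 to 1.17, an unadjusted p of 0.0061 and an adjusted p of 0.491. Its second probe gave signals of 17.7 against 14.4 on array 1 and 20.9 against 13.5 on array 2. The direction was the same there, with log2 ratios of 0.30 and 0.63.

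Wnt2, a ligand of mesenchymal tissues known for its role in lung formation, had signals of 34.9 (RNA A) against 27.6 (RNA B) on array 1. On array 2 they were 49.9 against 29.6, so that RNA A was again the brighter, here too below 100. The mean log2 ratio was 0.55 ± 0.29 (SD, n = 2 arrays), with a 95% limma interval of 0.07 to 1.02, an unadjusted p of 0.0293 and an adjusted p of 1.00.

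Wnt9b and Wnt11 belong to the ligands of the ureteric bud and kidney, Wnt9b in the stalk epithelium, where it acts on the nephron-forming mesenchyme, and Wnt11 at the branching tips. Wnt9b had signals of 28.3 and 27.0 (RNA A and RNA B) on array 1 and 26.1 against 15.15 on array 2. The difference rested on the male array, with log2 ratios of 0.07 and 0.79 and a mean of 0.43 ± 0.51 (SD, n = 2 arrays; limma adjusted p = 1.00). The mean was 0.21 with normexp and loess, which replace both the deposited background correction and the normalisation. It was 0.41 with loess on the processed signals. Wnt11 had signals of 388 against 356 on array 1 and 441 against 344 on array 2. RNA A was slightly brighter on both, with a mean ratio of 0.24 ± 0.17 (SD, n = 2 arrays) and a 95% limma interval of -0.22 to 0.70. Wnt11 is itself 1 of the 4 collecting duct and ureteric tip markers, which were all well above background. The summed signal of these markers was 580.3 and 597 for RNA A against 537 and 460.3 for RNA B. Wnt11 itself made up the larger part of each sum, so the sums are no separate reading beside its ratio. Of the other tip markers, Aqp2 had log2 ratios of 0.16 and 0.08, Ret -0.10 and 0.90, and Calb1 0.39 and -0.62. The summed signal of the nephron list was 8252 to 10189 against 10048 to 10956. The part of these lists in the ratios of Wnt9b and Wnt11 was not tested.

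Wnt4, which drives the formation of nephrons and is also expressed in other parts of the urogenital tract, was brighter in the green dye on both arrays. Its signals were 1152 (RNA A) against 1538 (RNA B) on array 1 and 2174 against 1154 on array 2. The log2 ratios were -0.42 and 0.91, with a mean of 0.25 ± 0.94 (SD, n = 2 arrays; limma adjusted p = 1.00). A second Wnt4 probe gave ratios of -0.18 and 0.49, which is the same order of signs at a smaller size.

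Wnt7b, known as an epithelial ligand of the collecting duct, had signals of 159 (RNA A) against 266 (RNA B) on array 1. On array 2 they were 198 against 189, and only the female array thus showed a difference of size. The log2 ratios were -0.74 and 0.07, with a mean of -0.34 ± 0.57 (SD, n = 2 arrays) and a 95% limma interval of -0.88 to 0.21. Wnt10a, a ligand of epithelial appendages, had signals of 132 against 214 on array 1 and 213 against 160.1 on array 2. Its log2 ratios of -0.70 and 0.41 were again opposite. Wnt6, an epithelial ligand, gave signals of 258 against 348 on array 1 and 365 against 243 on array 2, with log2 ratios of -0.43 and 0.59. Neither Wnt6 nor Wnt10a had a mean beyond its spread, at 0.08 ± 0.72 and -0.15 ± 0.79 (SD, n = 2 arrays).

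Wnt5a, the main ligand of the branch that acts without beta-catenin, had nearly equal signals of 211 against 224 on array 1 and 193 against 187 on array 2. The log2 ratios of -0.09 and 0.04 were among the smallest of the ligands, and the 95% limma interval of the mean ran from -0.48 to 0.43. The other ligands well above background (Wnt1, Wnt5b, Wnt8b, Wnt9a and Wnt10b) had mean log2 ratios from -0.27 (Wnt8b) to 0.29 (Wnt10b). Wnt2b, Wnt3, Wnt3a, Wnt7a and Wnt8a were not well above background in at least 1 RNA on both arrays, and nor were Rspo4 and Dkk4. The signals of these 7 genes lay between 0.843 and 9.02 and no fold is given for them.

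**Figure D3:**
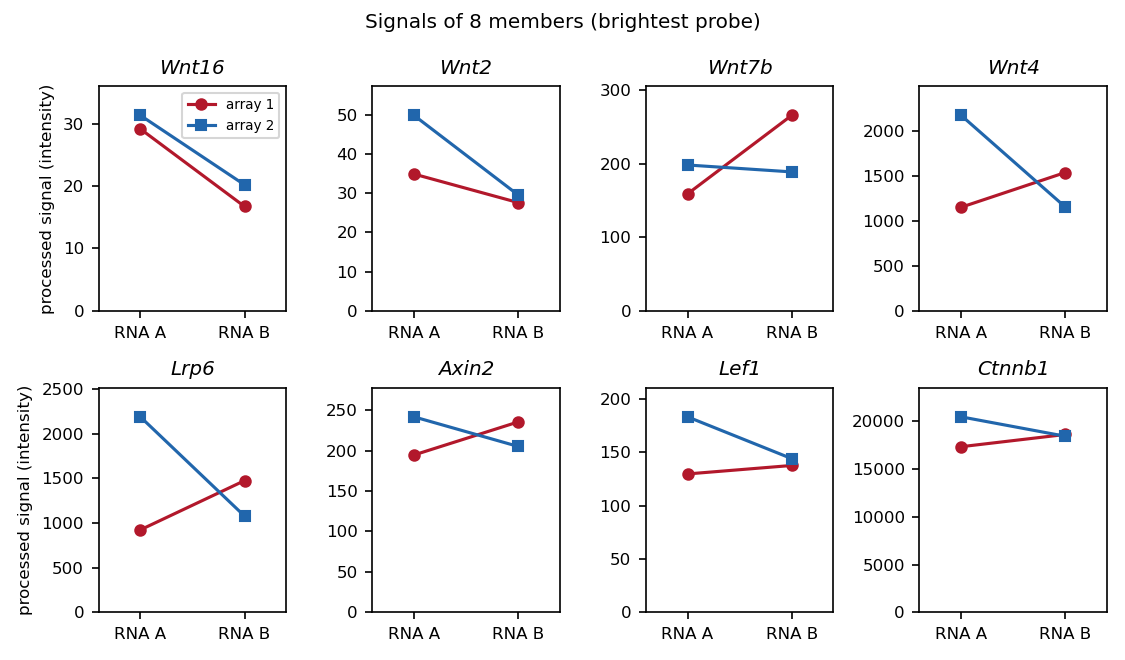
Processed signal (y axis, linear intensity from 0) in RNA A and RNA B for 8 WNT genes, with red circles for array 1 and blue squares for array 2. Each line joins the RNAs of 1 array. The lines of Wnt16 and Wnt2 fall on both arrays, whereas those of Wnt4, Lrp6, Axin2, Lef1 and Ctnnb1 cross or run in opposite directions, and that of Wnt7b rises steeply on array 1 only. Each panel has its own scale, so heights are not compared between genes.

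All 10 Frizzled receptors were well above background. Of these 7 were brighter in the green dye on both arrays, against 32.6% of all genes tested. RNA A was the brighter on both for 2 (Fzd3 and Fzd5), against 21.6%, and RNA B for 0, against 17.4%. The red dye was the brighter on both for 1 (Fzd6), against 28.4%. Fzd1, a receptor expressed in the mesenchyme of many organs, had signals of 11866 (RNA A) against 15138 (RNA B) on array 1 and 16951 against 12656.5 on array 2. Its log2 ratios were -0.35 and 0.42, and the mean was 0.04 ± 0.55 (SD, n = 2 arrays). Fzd9, another receptor of the family, had signals of 41.1 against 57.6 on array 1 and 81.9 against 49.1 on array 2. The ratios of -0.49 and 0.74 were the widest apart of the receptors, and the mean was 0.12 ± 0.87 (SD, n = 2 arrays). The other 8 receptors had mean log2 ratios from -0.22 (Fzd10) to 0.39 (Fzd5). Fzd5 was dim, with a signal of 10.3 in both RNAs on array 1 and of 10.5 against 6.12 on array 2. There its RNA B was not well above background. Its log2 ratios were 0.0083 and 0.78, with SDs over spots of 0.43 and 0.85, and its second probe gave -0.19 and -0.05. Fzd10 was chosen with its values known, as a gene past 1.5-fold on array 1 alone, with signals of 109 and 169 there and of 132 and 115 on array 2.

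The LRP co-receptors differed from each other in pattern. Lrp5 had signals of 385 (RNA A) against 386 (RNA B) on array 1 and 352 against 409 on array 2. The log2 ratios were -0.0027 and -0.22, with a mean of -0.11 ± 0.15 (SD, n = 2 arrays) and a 95% limma interval of -0.57 to 0.35. Lrp6 gave signals of 923 against 1473 on array 1 and 2186.5 against 1077 on array 2. RNA B was thus 1.60-fold brighter in the female pools and RNA A 2.03-fold brighter in the male pools, and the green dye was the brighter on both. The log2 ratios were -0.67 and 1.02, with SDs over the 4 spots of 0.02 and 0.01, so the spots of an array agreed closely while the arrays did not. The mean was 0.17 ± 1.2 (SD, n = 2 arrays; limma adjusted p = 1.00).

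The second Lrp6 probe, at an earlier position of the transcript, did not show this pattern. Its signals were 123 and 129 on array 1 and 119 against 155 on array 2. The log2 ratios were -0.07 and -0.39, so that RNA B was the brighter on both arrays and the probes disagreed in direction on array 2.

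Of 4 R-spondins 3 (Rspo1, Rspo2 and Rspo3) were well above background. Rspo3, which had signals of 746 (RNA A) against 715 (RNA B) on array 1, gave 747 and 712 on array 2. This was the closest accord between the arrays among the 44 members tested, with a mean ratio of 0.07 ± 0.0056 (SD, n = 2 arrays) and a 95% limma interval of -0.38 to 0.51. Rspo1, likewise chosen with its values known as a gene past 1.5-fold on array 1 alone, had signals of 334 and 546 there and of 326 and 277 on array 2. Its log2 ratios were -0.71 and 0.23. Those of Rspo2 were -0.23 and 0.64.

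Of 9 secreted antagonists 8 were well above background. The role held 2 genes brighter in RNA A on both arrays (Dkk1 and Sfrp5), against 21.6% of all genes tested. It held 2 brighter in RNA B on both (Sfrp1 and Sfrp4), against 17.4%. The green dye was the brighter on both for 4 (Dkk2, Dkk3, Sfrp2 and Wif1), against 32.6%. Wif1, which binds WNT proteins outside the cell, had signals of 88.1 (RNA A) against 89.5 (RNA B) on array 1 and 64.5 against 52.9 on array 2. The log2 ratios of -0.02 and 0.29 gave a mean of 0.13 ± 0.22 (SD, n = 2 arrays) and a 95% limma interval of -0.33 to 0.60. Sfrp2, a Frizzled-related decoy, was the antagonist with the widest gap between arrays, at -0.35 and 0.56. The other 7 had mean log2 ratios from -0.14 (Sfrp4) to 0.18 (Sfrp5). Dkk1, which blocks the LRP co-receptors, had signals of 154 and 143 in the female and of 56.5 and 56.0 in the male pools, a difference between arrays that both RNAs and both dyes shared. Sex and array cannot be told apart in it.

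The cytoplasmic and nuclear components were all well above background. Of these 5 of 6 were brighter in the green dye on both arrays, against 32.6% of all genes tested. Their mean log2 ratios ran from -0.22 (Axin1) to 0.13 (Lef1), all within 1.2-fold. Axin1, a scaffold of the complex that destroys beta-catenin, was the exception in direction. It had signals of 125 (RNA A) against 150.5 (RNA B) on array 1 and 181 against 204 on array 2. RNA B was slightly brighter on both, with log2 ratios of -0.27 and -0.17, a mean of -0.22 ± 0.07 (SD, n = 2 arrays), a 95% limma interval of -0.67 to 0.23 and an adjusted p of 1.00. Ctnnb1, which encodes beta-catenin, had signals of 17321 against 18599 on array 1 and 20443 against 18415 on array 2. Its log2 ratios were -0.10 and 0.15, and the 95% limma interval of the mean was -0.43 to 0.48.

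Lef1, a transcription factor that binds beta-catenin and is itself a target of the pathway in many tissues, had signals of 129.8 (RNA A) against 138 (RNA B) on array 1. On array 2 they were 183 against 144, so that the difference lay mainly in the male pools. The log2 ratios of -0.09 and 0.35 gave a mean of 0.13 ± 0.31 (SD, n = 2 arrays) with a 95% limma interval of -0.35 to 0.61, and a second probe gave -0.14 and 0.21. Tcf7, a factor of the same family, had signals of 473 against 601 on array 1 and 687 against 569 on array 2, with log2 ratios of -0.35 and 0.27. Tcf7l1, which acts mostly as a repressor, had signals of 1249 against 1588 on array 1 and 1821 against 1532 on array 2. Its log2 ratios of -0.35 and 0.25 were much like those of Tcf7, and the means of these genes were -0.05 and -0.04.

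Tcf7l2, a nuclear partner of beta-catenin, was read by 3 probes that gave different ratios. The brightest had signals of 322 (RNA A) against 449 (RNA B) on array 1 and 561 against 401 on array 2. Its log2 ratios of -0.48 and 0.49 cancelled to a mean of 0.0038 ± 0.68 (SD, n = 2 arrays). Probe 2 gave signals of 70.5 against 123 on array 1 and 198 against 91.2 on array 2, with ratios of -0.80 and 1.12, so that it too passed the 1.5-fold criterion in opposite directions. Probe 3, at the far 5′ position, gave ratios of 0.08 and -0.02, with signals of 46.4 against 44.0 on array 1 and 45.2 against 45.8 on array 2. The direction was thus the same for probes 1 and 2, and probe 3 showed no difference of size on either array.

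**Figure D4:**
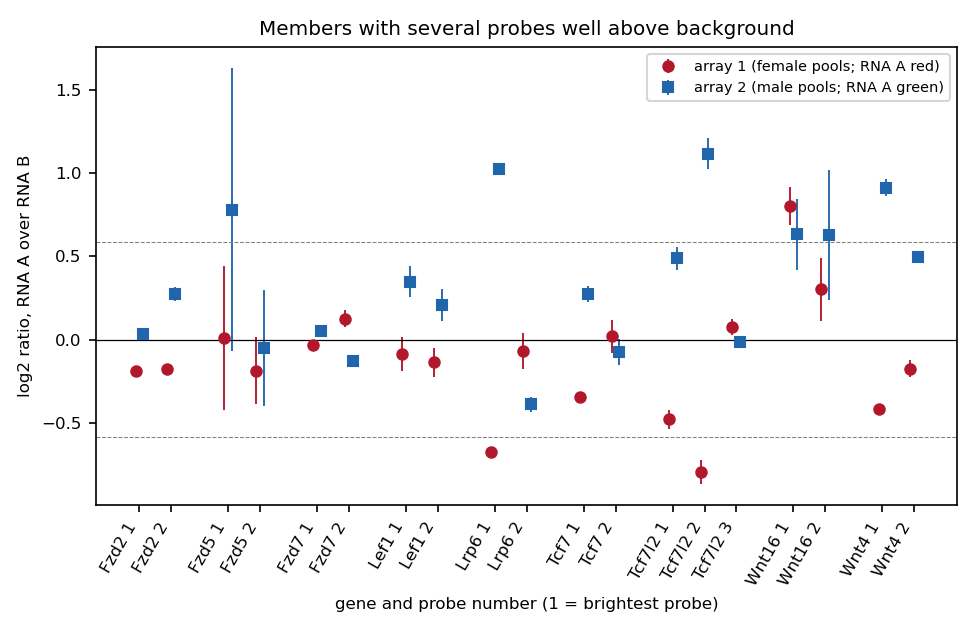
Log2 ratio of RNA A over RNA B (y axis) for the probes of the 9 WNT genes with several probes well above background, numbered from the brightest. Red circles are array 1, blue squares array 2, whiskers the SD over spots and dashed lines 1.5-fold. The probes of Lrp6 and of Tcf7l2 lie far apart, at 1.02 and -0.39 on array 2 for Lrp6, while those of Lef1 lie close together.

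Of 12 members with several probes, 9 had several well above background. The probes of a gene had mean ratios of different sign in 4 of these 9 (Fzd2, Fzd5, Fzd7 and Lrp6). They differed in sign on array 1 for 4 genes (Fzd5, Fzd7, Tcf7 and Tcf7l2) and on array 2 for 5 (the same 4 and Lrp6).

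Axin2, a widely used readout of canonical WNT activity, had signals of 194 (RNA A) against 235 (RNA B) on array 1. On array 2 they were 242 against 205, so that the green dye was the brighter on both arrays. The log2 ratios of -0.28 and 0.24 gave a mean of -0.02 ± 0.36 (SD, n = 2 arrays), with a 95% limma interval of -0.51 to 0.47 and an adjusted p of 1.00. Its second probe was not well above background in RNA A on either array nor in RNA B on array 2, with signals of 2.33 against 4.44 on array 1 and 2.34 against 3.93 on array 2. The mean over both probes was -0.43.

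A further list of 61 pathway genes, which held ligand processing, other receptors and co-receptors, extracellular modulators, cytoplasmic components and targets, was read in the same way. Of these 61 genes 58 were well above background. limma called 0 of them at an adjusted p under 0.05, against 0.313% of all genes tested, and 1 at an unadjusted p under 0.05, against 3.78%. The criterion was passed by 0 in 1 direction throughout, against 0.157% (RNA A) and 0.23% (RNA B) of all genes. It was passed in opposite directions by 2, Gsk3b and Tbx3, against 0.43%. The green dye was the brighter on both arrays in 33 of 58, against 32.6% of all genes tested, the red dye in 15, against 28.4%, RNA A in 5, against 21.6%, and RNA B in 5, against 17.4%.

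Lgr6, a receptor for R-spondins, was the gene with the unadjusted limma p under 0.05. It had signals of 26.2 (RNA A) against 33.5 (RNA B) on array 1 and 23.6 against 46.8 on array 2. RNA B was brighter on both, with a mean ratio of -0.67 ± 0.45 (SD, n = 2 arrays), a limma p of 0.0161 and an adjusted p of 0.805. Tbx2, a transcription factor of the ureteric mesenchyme known as a WNT target there, had signals of 574 against 868 on array 1 and 814 against 981 on array 2. RNA B was again the brighter on both, with log2 ratios of -0.60 and -0.27 and a 95% limma interval of the mean from -0.90 to 0.03. This lay beside the mesenchymal marker list, whose medians were -0.42 and -0.64, and the part of that list in the ratio was not tested.

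Tbx3, a related factor, had signals of 4038 (RNA A) against 8547 (RNA B) on array 1 and 10506 against 6372 on array 2. The ratios of -1.08 and 0.72 were opposite, in contrast to Tbx2. Gsk3b, a kinase that marks beta-catenin for destruction, had ratios of -0.67 and 0.64, again with the green dye the brighter on both arrays. The same order was seen for Ror2, a WNT5A receptor (-0.54 and 0.47), for Sp5, a target gene (-0.74 and 0.83), and for Tle3, a co-repressor (-0.50 and 0.49). Notum, an enzyme that removes the lipid from WNT proteins and is itself a WNT target, showed the reverse order. Its signals were 9895 and 7289 on array 1 and 5798 against 11621 on array 2, which is brighter in the red dye on both, with log2 ratios of 0.44 and -1.003.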

How the data were processed

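RNA of pooled ureters was measured on 2 two-colour arrays, 1 per sex with exchanged dyes. The authors' deposited processed intensities, per the file headers made with Agilent Feature Extraction 10.7.3.1, were background-subtracted, replaced by surrogates near background (7.98% to 8.22% of green and 15.1% to 15.2% of red spots) and dye-normalised by a linear step and LOWESS, on which ratios of dim or dye-biased probes depend. No spot was saturated (0). The deposited log10 ratio (red over green) served only to check the dyes and in 88.9% of spots lay within 0.001 of the value given by the processed signals. The deposited mean and local background intensities served an alternative. The authors' deposited signed fold changes were treated as a score (titled Pparg-cKO vs control, scale linear, medians 1 and 1). They correlated at 0.997 with RNA A over RNA B on both arrays and were used as an alternative. No genotype direction was assigned.

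Control spots (17263 per array) and spots marked as outliers (5705 and 5579) were left out, and log2 signals of a probe's spots were averaged. Names were updated through RefSeq for 28328 of 39429 probes. The brightest probe represented a gene. Well above background means so marked by Feature Extraction in a share of 0.5 or more of the probe's spots. limma 3.58.1 in R 4.3.3 (lmFit with an intercept, eBayes, two-sided, Benjamini-Hochberg at 0.05) was fitted to the ratios of 21429 genes. It had been tested on simulated data, whose planted changes were larger than the mean ratio of any member. Recovery of changes of the members' size was not tested. Each ratio pairs the RNAs of 1 array, so no block was added. The number of arrays limits the precision.

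Members and lists were chosen with earlier results of these data known. Named with values were the listed members, those past the criterion or called, those beyond 0.4 on the log2 scale (mean with 1 direction, or both arrays with opposite signs), and Wnt4, Wnt5a, Wnt7b, Wnt9b, Wnt11 and Fzd1. Alternatives were other background corrections and normalisations, other rules for spots, probes, intensity and fold, no or a stricter filter on dim probes, an intensity trend and leaving out each array. The lists of endothelial, glial or neuronal, macrophage and red blood cell markers (n = 4, 5, 4 and 4) were all well above background. Their median log2 ratios were 0.22, -0.13, 0.18 and 0.10 on array 1 and 0.05, 0.48, 0.13 and 0.07 on array 2. The tip, nephron and gonad lists had medians of 0.14, -0.26 and 0.13 on array 1 and 0.22, -0.013 and 0.04 on array 2. Of the 3 sex markers 2 were well above background, Ddx3y and Eif2s3y. Ddx3y had signals of 10.9 and 16.7 in the female and 4794 and 4396 in the male pools. Those of Eif2s3y were 10.6 and 13.5 in the female and 2013 and 2245 in the male pools. Xist had signals of 1980 and 1651 in the female and 3.06 and 2.43 in the male pools. It missed the filter, which asks for signal on both arrays.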

Additional observations from a re-analysis of the deposited data

Results flagged for a closer look

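Among the probes of the WNT genes 2, of Lrp6 and of Tcf7l2, passed 1.5-fold in opposite directions in the sexes. The brightest Lrp6 probe had a log2 ratio of RNA A over RNA B of -0.67 in the female pools (array 1) and of 1.02 in the male pools (array 2). The second probe of Tcf7l2 had ratios of -0.80 and 1.12. Each sex was measured on 1 array, so their difference was not tested. The dyes were exchanged between the arrays, and dye and sex cannot be told apart. On both probes the green dye was the brighter on both arrays. The other Lrp6 probe had ratios of -0.07 and -0.39, and the third Tcf7l2 probe 0.08 and -0.02.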

How the results depend on the processing

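No alternative gave a limma call among the members, whose lowest adjusted p ran from 0.491 to 1, and the count brighter in green on both arrays stayed between 26 and 28. Over all genes limma called 67, but 1 with normexp and loess, 33 with loess on processed signals, 0 with the authors' table and 0 without the filter on dim probes (536, 803, 567 and 494 at an unadjusted p under 0.05). Wnt16 fell from a mean log2 ratio of 0.72 to 0.38, Wnt2 from 0.55 to 0.33, Wnt9b from 0.43 to 0.21 and Wif1 from 0.13 to 0.09 with normexp and loess. The normexp background correction used an offset of 50. With loess on processed signals these means were 0.71, 0.54, 0.41 and 0.12. Without the intensity threshold 2 members passed 1.5-fold in the same direction (Rspo4 and Wnt16) and 4 in opposite directions (Dkk4, Lrp6, Wnt3a and Wnt8a). Rspo4, Dkk4, Wnt3a and Wnt8a were not well above background. Dkk4, Wnt3a and Wnt8a were brighter in the red dye on both arrays, the reverse of Lrp6. The share of all genes was not counted at this setting. Lrp6 no longer passed (0 members) with the mean over probes, where its ratio was -0.028, or at 2-fold. The mean over probes also moved Axin2 from -0.02 to -0.43, through a probe not well above background in RNA A, and Lef1 from 0.13 to 0.08. With 1 array left out, 3 to 5 members passed on the other alone, against 2.63% to 3.2% of all genes. The members' median was -0.09 (array 1) or 0.23 (array 2).

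The sign of Tcf7l2 turned to -0.0053 with normexp and loess, -0.0048 with loess, -0.0087 with median centring and -0.0015 with the median over spots, and that of Wnt5a to 0.0073 in the authors' table. The cause was not tested. Leaving out an array gave, from lowest to highest, -0.35 to 0.42 for Fzd1, -0.49 to 0.74 for Fzd9, -0.67 to 1.02 for Lrp6, -0.42 to 0.91 for Wnt4, -0.43 to 0.59 for Wnt6, -0.10 to 0.15 for Ctnnb1, -0.086 to 0.35 for Lef1, -0.48 to 0.49 for Tcf7l2, -0.021 to 0.29 for Wif1, -0.70 to 0.41 for Wnt10a, -0.088 to 0.038 for Wnt5a, -0.74 to 0.070 for Wnt7b, -0.35 to 0.27 for Tcf7, -0.35 to 0.25 for Tcf7l1 and -0.28 to 0.24 for Axin2. With 1 array no test could be fitted. No paired analysis was possible because the labels give 1 group, and each ratio already pairs the RNAs of an array. Of 44 members tested, 32 reached a signal of 100 on both arrays.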
